A study of Mus musculus with 9 samples.

Results

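The return of weight bearing to unloaded muscle was examined by comparing the 3 Reloading libraries with the 2 Unloading libraries, 5 of the 9 libraries of the series, across all expressed genes. Unloading mice had carried no weight on the hind legs for 10 days, and Reloading mice had then spent 1 day in their home cage without the tail line. The remaining 4 libraries came from Control mice kept in conventional cages and serve as background for the comparison. Each library is polyadenylated RNA of the gastrocnemius, a mixed calf muscle of mostly fast fibres, and all mice were wild-type, C57BL/6 in the labels and C57BL/6J in the methods. The labels give the mice as male, whereas female mice are named in the methods of the unloading procedure. The Y-linked gene Eif2s3y had between 578 and 1254 counts in every library, which is what tissue of male mice holds. The methods house 2 mice in each cage during unloading, and nothing beyond the labels of separate samples ties a library to an animal or a cage, so the p-values below measure the spread between these samples. The comparison takes in the whole transcriptome, and the heat shock genes and Mustn1 are given only where they set the scale for other genes.

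Skeletal muscle adjusts its mass and its composition to the load it carries. Without load, protein breakdown outpaces synthesis and fibres shrink, and when load returns the weakened fibres are stretched while they contract, which strains the Z-discs, where actin filaments are anchored, the costameres that tie them to the membrane, and the membrane itself. Mechanical strain is known to act through actin and the serum response factor SRF with its cofactors of the MRTF family, through the coactivator YAP, through calcium and the phosphatase calcineurin, and through factors such as AP-1, Egr and Nr4a that are made within hours. Regrowth involves fibres, vessels, nerve, resident macrophages and the collagen-making cells of the muscle sheath, all of which are ground together in a whole-muscle library.

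The Reloading libraries held between 11111313 and 13678190 read pairs in genes and the Unloading libraries 14094478 and 19612101. Trimmed mean of M-values (TMM) scaling factors were between 1.11 and 1.13 in Reloading and between 0.935 and 0.949 in Unloading. The 10 genes with most counts took between 20.7 and 21.8% of a Reloading library and between 25.9 and 26.3% of an Unloading library. The choice of scaling sets the zero line. Over all tested genes the median log2 fold change was 0.026 with TMM and 0.27 when libraries were scaled to their totals only. Fold changes below are relative to TMM. Where the other scaling turns the balance of higher and lower calls on a list, this is said beside the list. Shares in percent of counts are of library totals without TMM, the scaling under which the median of all genes was 0.27. Reloading 1 and Control 2 held transcripts of skin, with 502 and 1086 counts of the keratin gene Krt2, where no other library had more than 3, and every count was repeated without this pair. In whole muscle, fewer cells of a type and less RNA per cell cannot be told apart. Defining transcripts of muscle fibres (Acta1, Ckm, Myh4, Tnnt3) were abundant in every library, and those of lymphocytes and neutrophils were at or near 0.

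A large part of the transcriptome differed after 1 day of load. Of 14851 genes with enough counts to be tested, 5562 or 37.5% are called changed, at a Benjamini-Hochberg threshold of 0.05 on the quasi-likelihood F-test of edgeR, 2743 higher (18.5%) and 2819 lower (19.0%) in Reloading. A change of at least 2-fold was reached by 926 of the higher genes (6.24% of those tested) and by 296 of the lower genes (1.99%), so the increases were more often large. The even split rests on the scaling, since library totals alone gave 6340 calls of which 82.8% were higher. Calls in the lower direction were more frequent among abundant genes: when the tested genes were ranked by level and cut into 5 equal classes, 1315 were lower and 459 higher in the top class and 145 were lower and 429 higher in the bottom class. Against Control, 1590 of the higher genes stood above every Control library in Reloading while their Unloading values overlapped Control. Another 323 lay below every Control library in Unloading and above every one in Reloading. A further 360 lay below every Control library in Unloading and overlapped Control in Reloading. Among the lower genes 1276 overlapped Control in Unloading and lay below every Control library in Reloading. Another 401 lay above every Control library in Unloading and below every one in Reloading. A further 522 lay above every Control library in Unloading and overlapped Control in Reloading. The Control libraries enter these counts only as bounds. The counts cover called genes only, are not set beside the same counts over all tested genes, and do not measure recovery or overshoot. Counts on gene lists below are to be read beside the shares of all tested genes, 18.5% higher and 19.0% lower. In what follows levels are CPM (counts scaled to a common library size of 1e+06) after TMM scaling, a value after ± is the standard error of a log2 fold change unless marked SD, and a gene is said to have risen or fallen only where it passed the test above.

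**Figure D1:**
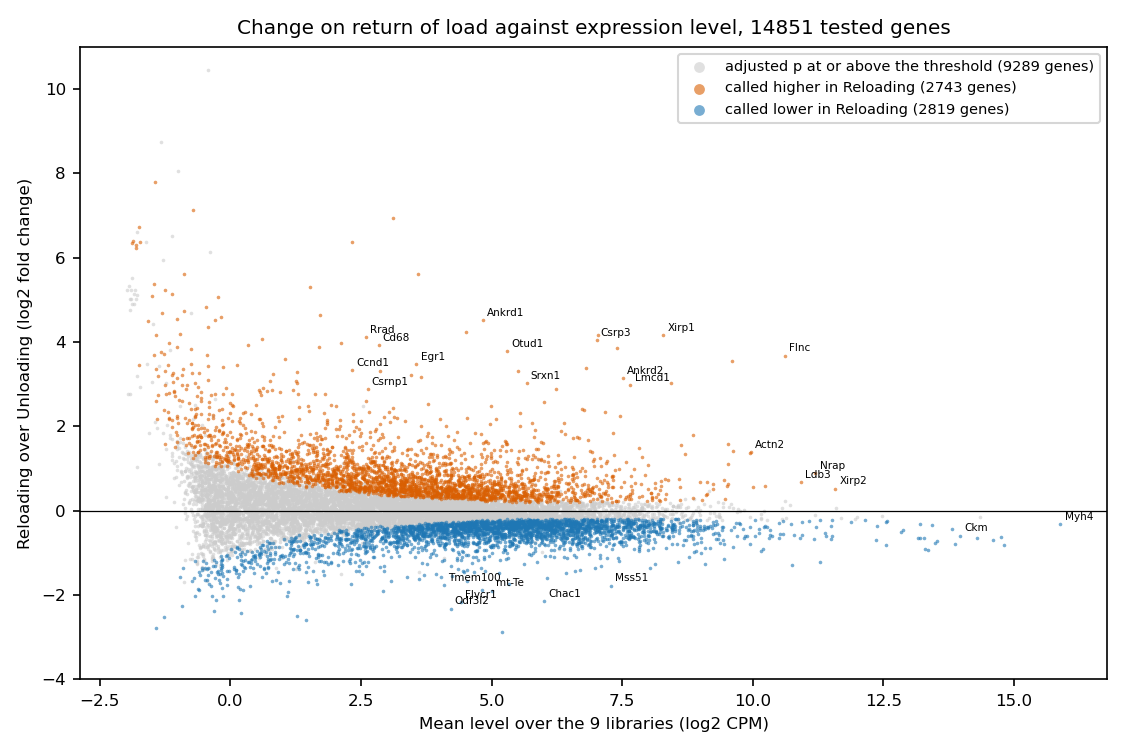
Mean level of each tested gene (log2 CPM, horizontal) against its log2 fold change from Unloading to Reloading (vertical), with 2743 genes called higher in orange, 2819 called lower in blue and uncalled genes in grey. Increases reach far beyond 2-fold at all but the highest levels, and most of the abundant genes at the right edge lie slightly below 0.

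Outside the heat shock list, Mustn1 and the genes that the study itself drew for this comparison, the genes that rose most among well-measured ones were those of the Z-disc and its links to actin, small regulators of calcium and signalling, and early transcription factors. Ankrd1 (ENSMUSG00000024803, chromosome 19, 36111961 to 36120099 of GRCm38), an ankyrin repeat protein that binds the elastic I-band part of titin, had 17.5 and 7.70 CPM in Unloading and 237, 314 and 294 CPM in Reloading, a 23.0-fold rise with a log2 fold change 4.52 ± 0.24, adjusted p 7.61e-09. Xirp1 (ENSMUSG00000079243, chromosome 9, 120013755 to 120023598), an actin-binding protein of sites of fibre damage and of the muscle-tendon junction, had 154 and 97.9 CPM in Unloading and 2638, 2307 and 1860.0 CPM in Reloading (log2 fold change 4.17 ± 0.21, adjusted p 4.96e-09). Csrp3 (ENSMUSG00000030470, chromosome 7, 48830398 to 48848033), the muscle LIM protein of the Z-disc, had 73.3 and 35.0 CPM in Unloading and 838, 903 and 915 CPM in Reloading (log2 fold change 4.04 ± 0.31, adjusted p 2.68e-07). For each of the 3 genes the lowest Reloading value lay several-fold above the highest Unloading value, and the Control libraries, between 6.71 and 9.44 CPM for Ankrd1, between 91.8 and 132 CPM for Xirp1 and between 32.5 and 68.4 CPM for Csrp3, stood near Unloading or below it. The size of 2 of these rises leaned on Unloading 1, without which the log2 fold changes were 5.19 for Ankrd1 and 4.65 for Csrp3. Flnc (ENSMUSG00000068699, chromosome 6, 29433256 to 29461883), the muscle filamin that crosslinks actin at the Z-disc, rose 12.8-fold from an already high level, with 719 and 557 CPM in Unloading and 9821, 7783 and 6869 CPM in Reloading (log2 fold change 3.68 ± 0.18, adjusted p 3.32e-09). Ankrd2, the stretch-responsive relative of Ankrd1, had 101.6 and 74.97 CPM in Unloading and 699, 758 and 861 CPM in Reloading (log2 fold change 3.13 ± 0.21, adjusted p 7.09e-08). For Flnc and Ankrd2 every Reloading library also stood above every Control library.

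Beside these structural genes rose a set of regulators. Rrad (ENSMUSG00000031880, chromosome 8, 104628070 to 104631327), a small GTPase that restrains voltage-gated calcium channels, had 1.20 and 3.28 CPM in Unloading and 52.1, 38.8 and 32.8 CPM in Reloading (log2 fold change 4.12 ± 0.27, adjusted p 7.09e-08). Otud1 (ENSMUSG00000043415, chromosome 2, 19657752 to 19660583), a deubiquitinating enzyme, had 14.2 and 14.8 CPM in Unloading and 192, 245 and 161 CPM in Reloading (log2 fold change 3.77 ± 0.26, adjusted p 1.23e-07). Lmcd1, a LIM-domain cofactor of transcription linked to calcineurin, had 131 and 87.5 CPM in Unloading and 943, 877 and 753 CPM in Reloading (log2 fold change 2.97 ± 0.17, adjusted p 1.30e-08). Each of the 3 was 7.86-fold to 17.4-fold higher, and the log2 fold change of Rrad was 5.08 without Unloading 2. Nr4a3, an orphan nuclear receptor induced by exercise, had 2.62 and 3.39 CPM in Unloading and 29.4, 34.6 and 26.8 CPM in Reloading (log2 fold change 3.31 ± 0.17, adjusted p 4.99e-09), and Egr1, a zinc finger factor of the early response, had 3.67 and 3.72 CPM in Unloading and 46.9, 49.2 and 28.1 CPM in Reloading (log2 fold change 3.48 ± 0.40, adjusted p 1.20e-05). The Unloading values of Egr1 lay at or below the lowest Control library (between 3.72 and 13.5 CPM in Control), and the Reloading values above the highest. Csrnp1, a nuclear protein of the early response, had 3.14 and 3.06 CPM in Unloading and 22.4, 25.7 and 20.4 CPM in Reloading (log2 fold change 2.88 ± 0.22, adjusted p 2.35e-07). Srxn1, the enzyme that restores oxidised peroxiredoxins, had 22.1 and 26.0 CPM in Unloading and 244, 203 and 141 CPM in Reloading (log2 fold change 3.02 ± 0.19, adjusted p 4.77e-08). Cd68, a glycoprotein of lysosomes that marks macrophages, had 3.59 and 2.51 CPM in Unloading and 42.9, 50.4 and 44.4 CPM in Reloading (log2 fold change 3.93 ± 0.17, adjusted p 1.12e-09), and is taken up with the other macrophage genes. Ccnd1, which encodes cyclin D1 for entry into the cell cycle, had 1.35 and 2.02 CPM in Unloading and 21.8, 18.2 and 12.9 CPM in Reloading (log2 fold change 3.34 ± 0.27, adjusted p 4.04e-07); its annotated exons overlap those of the gene LTO1 and the sources used here do not state that counting used strand, so its level is uncertain. For scale, the Hspa1b, Cryab and Mustn1 log2 fold changes were 6.94, 3.56 and 4.16 in the same fit.

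**Figure D2:**
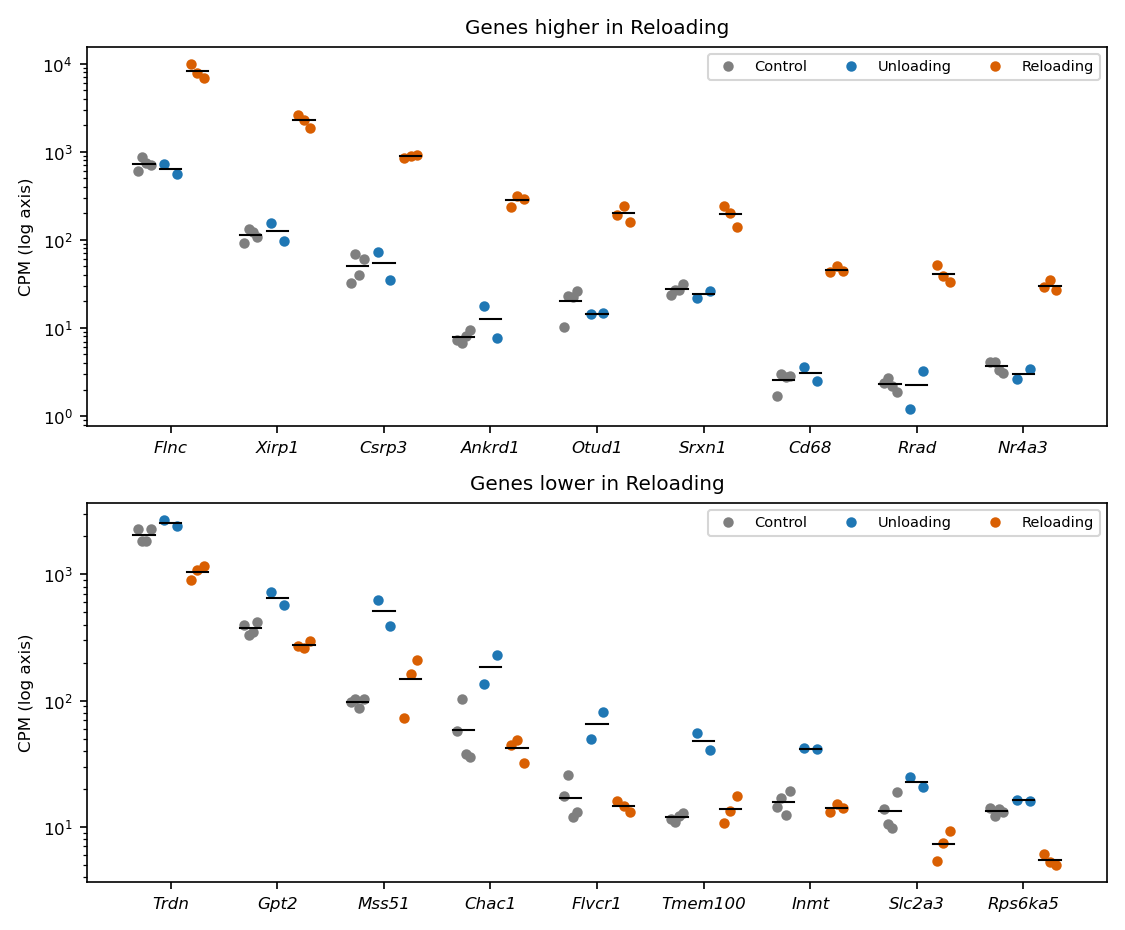
Level of 9 genes that rose and 9 that fell, in CPM on a log axis, with a point for each library of Control (grey), Unloading (blue) and Reloading (orange) and a bar at each group mean. All but Trdn and Gpt2 were chosen among genes without overlap between Reloading and Unloading. For Mss51, Chac1, Flvcr1, Tmem100 and Inmt Unloading stands above both other groups. Reloading lies near Control in these genes, except for Mss51, where it spreads to both sides of Control.

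Several of the genes that rose carry binding-site letters of AP-1 or SRF just upstream of their start, and a few of these stretches are shown as examples. Promoter windows of RefSeq (250 bases before to 50 after a start site, build GRCm38.p6) were at hand for 10230 of the tested genes, 13140 windows in all, and both strands were searched. The AP-1 letters TGAGTCA, which read TGACTCA on the opposite strand, occurred in 7.61% of the windows of genes at least 2-fold higher, in 5.05% of those of genes at least 2-fold lower and in 3.81% of all windows. The CArG box bound by SRF occurred in 2.31%, 0.459% and 1.33% of the same windows. For the cyclic AMP response element TGACGTCA the shares were 2.99%, 1.38% and 2.90%, for the E-box CACGTG 8.02%, 5.50% and 9.73%, and for the Atf4 composite letters TGATGCAA 0.408%, 0.459% and 0.548%. These shares describe letters and carry no test, and a match is not evidence that a factor was bound. The AP-1 letters also stood in windows of Fgf12, Aldh1a1 and Dmd, which fell. A CArG box stood in windows of Dmd and Myh4, which fell, and of Acta1 and Srf, which were not called. Csrnp1 had 4 windows and Fhl1 2, and only windows holding the letters are shown.

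The stretches end at the base before the start of a RefSeq transcript and run 5′ to 3′ on the strand of the gene, with the AP-1 letters in capitals. Srxn1 lies at chr2:152105404-152105523 on the plus strand, Csrnp1 at chr9:119983024-119983143 on the minus strand, Cd68 at chr11:69666171-69666330 on the minus strand and Klhl40, a stabiliser of thin filaments described further on, at chr9:121777507-121777606 on the plus strand.
Srxn1: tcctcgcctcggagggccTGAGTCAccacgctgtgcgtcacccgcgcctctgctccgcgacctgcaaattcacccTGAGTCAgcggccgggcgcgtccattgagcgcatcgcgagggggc
Csrnp1: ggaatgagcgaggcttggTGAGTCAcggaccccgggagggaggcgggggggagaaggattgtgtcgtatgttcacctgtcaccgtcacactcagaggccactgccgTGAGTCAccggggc
Cd68: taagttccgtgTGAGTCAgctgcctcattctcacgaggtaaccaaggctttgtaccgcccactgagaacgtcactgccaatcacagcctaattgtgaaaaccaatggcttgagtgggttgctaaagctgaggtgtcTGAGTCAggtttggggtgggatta
Klhl40: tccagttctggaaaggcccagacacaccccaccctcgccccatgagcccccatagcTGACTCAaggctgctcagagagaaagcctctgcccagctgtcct

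Lmcd1 (plus strand, chr6:112273528-112273757) holds a CArG box and a cyclic AMP response element, and Fhl1 (plus strand, chrX:56779563-56779682), which encodes a LIM protein of the sarcomere, holds a CArG box; these matches are the capitals in the stretches.
Lmcd1: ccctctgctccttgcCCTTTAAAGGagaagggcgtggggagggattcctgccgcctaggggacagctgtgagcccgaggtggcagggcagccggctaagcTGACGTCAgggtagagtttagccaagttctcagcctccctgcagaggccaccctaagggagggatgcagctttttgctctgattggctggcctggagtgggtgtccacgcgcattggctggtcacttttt
Fhl1: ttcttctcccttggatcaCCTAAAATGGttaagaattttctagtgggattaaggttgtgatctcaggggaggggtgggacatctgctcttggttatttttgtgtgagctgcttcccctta

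The genes that fell most were of mixed function, and several of them stood above Control in Unloading. Mss51 (ENSMUSG00000021815, chromosome 14, 20482867 to 20496901), a mitochondrial protein of fast fibres, had 628 and 392 CPM in Unloading and 73.2, 162 and 208 CPM in Reloading, a 3.44-fold fall with a log2 fold change -1.78 ± 0.28, adjusted p 0.000167, and stood between 88.1 and 104 CPM in Control. Tmem100, a membrane protein of endothelium induced by bone morphogenetic protein signals, had 55.4 and 40.4 CPM in Unloading and 10.7, 13.5 and 17.6 CPM in Reloading (log2 fold change -1.77 ± 0.16, adjusted p 1.71e-06) and stood between 10.9 and 12.9 CPM in Control. Inmt, a methyltransferase of small amines, had 42.0 and 41.1 CPM in Unloading and 13.1, 15.2 and 14.0 CPM in Reloading (log2 fold change -1.56 ± 0.14, adjusted p 1.02e-06) and stood between 12.4 and 19.0 CPM in Control. For these 3 genes the Unloading libraries stood above every Control library. All Reloading libraries lay within the Control range for Inmt, and they fell on both sides of that range for Mss51 and Tmem100. Flvcr1 (ENSMUSG00000066595, chromosome 1, 191005847 to 191026158), a membrane transporter linked to choline and heme, had 49.6 and 81.2 CPM in Unloading and 15.96, 14.6 and 13.05 CPM in Reloading (log2 fold change -2.18 ± 0.24, adjusted p 9.81e-06). Chac1, an enzyme that breaks down glutathione, had 135 and 231 CPM in Unloading and 44.6, 48.6 and 32.0 CPM in Reloading (log2 fold change -2.14 ± 0.34, adjusted p 0.000195), and Trp53inp1, a p53-induced protein that takes part in autophagy, had 43.0 and 29.6 CPM in Unloading and 10.96, 12.4 and 12.6 CPM in Reloading (log2 fold change -1.59 ± 0.15, adjusted p 1.94e-06). Odf3l2, named for a family of sperm tail proteins, headed the fall with a log2 fold change -2.33 ± 0.42, adjusted p 0.000614 and spread widely, at 67.4 and 29.0 CPM in Unloading and 3.71, 6.002 and 18.1 CPM in Reloading. Without Reloading 3 it was -3.28, and without Unloading 1 -1.62.

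Other genes that fell passed below the level of never-unloaded muscle. Rps6ka5 (ENSMUSG00000021180, chromosome 12, 100548439 to 100726983), the kinase MSK1 that phosphorylates histone H3 and CREB, had 16.4 and 16.1 CPM in Unloading and 6.04, 5.28 and 4.97 CPM in Reloading (log2 fold change -1.58 ± 0.12, adjusted p 3.29e-07), against between 12.2 and 14.0 CPM in Control. Slc2a3, a glucose transporter, had 24.8 and 20.7 CPM in Unloading and 5.32, 7.38 and 9.21 CPM in Reloading (log2 fold change -1.62 ± 0.24, adjusted p 9.41e-05), and Dglucy, the mitochondrial D-glutamate cyclase, had 24.9 and 22.6 CPM in Unloading and 5.96, 8.24 and 10.7 CPM in Reloading (log2 fold change -1.50 ± 0.17, adjusted p 9.13e-06). In all 3 genes every Reloading library lay below every Control library. Pm20d2 and the processed pseudogene Hmgb1-ps8 behaved likewise, with log2 fold changes of -1.53 ± 0.21 (adjusted p 4.91e-05) and -1.67 ± 0.18 (adjusted p 7.30e-06). Fgf12, an intracellular partner of sodium channels, fell at a low level, with 11.1 and 8.03 CPM in Unloading and 2.98, 4.41 and 2.58 CPM in Reloading (log2 fold change -1.51 ± 0.32, adjusted p 0.00178). The mitochondrial transfer RNA gene mt-Te fell 3.73-fold, with 55.2 and 56.6 CPM in Unloading and 14.8, 12.3 and 17.7 CPM in Reloading (log2 fold change -1.90 ± 0.25, adjusted p 4.20e-05). Teddm2 (log2 fold change -1.73) shares exons with Glul and cannot be separated from it. A group of genes singled out after their values were seen belongs with these: Aqp4, the water channel of fast fibres, fell from 36.8 to 13.6 CPM (log2 fold change -1.44 ± 0.10), Slc12a2, the sodium-potassium-chloride cotransporter, from 199.9 to 77.3 CPM (log2 fold change -1.37 ± 0.11), Klhl33 from 372 to 145 CPM (log2 fold change -1.36 ± 0.11), the retinaldehyde dehydrogenase Aldh1a1 from 153 to 56.4 CPM (log2 fold change -1.43 ± 0.18), and the cholesterol exporter Abca1 from 48.7 to 17.8 CPM (log2 fold change -1.45 ± 0.11). Ramp1, the partner of the receptor for calcitonin gene-related peptide, fell from 39.4 to 19.6 CPM (log2 fold change -1.01 ± 0.082). Fkbp5, a glucocorticoid-induced co-chaperone, ran against the heat shock list to which it belongs and fell from 84.8 to 24.97 CPM (log2 fold change -1.75 ± 0.30).

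Ranked by the difference in CPM instead of the fold, genes of the sarcomere stood at both ends. With the same genes left out, the 10 that gained most CPM were Flnc, Xirp1, Nrap, Ldb3, Xirp2, Actn2, Fhl1, Lmcd1, Csrp3 and Ankrd2, every one of them a gene of the Z-disc, of thin-filament assembly or of actin and LIM-domain linkage. Nrap, a scaffold of myofibril assembly, rose from 1979 ± 257 CPM in Unloading (SD, n = 2) to 3678 ± 39.3 CPM in Reloading (SD, n = 3), a log2 fold change 0.89 ± 0.088, adjusted p 3.19e-06. Xirp2, the larger relative of Xirp1, rose from 2584 ± 80.5 CPM in Unloading (SD, n = 2) to 3706 ± 167 CPM in Reloading (SD, n = 3) (log2 fold change 0.52 ± 0.099, adjusted p 0.000869), and Ldb3, the Z-disc protein ZASP, rose from 1608 to 2584 CPM (log2 fold change 0.68 ± 0.083). Actn2, the alpha-actinin found in all fibres, rose from 674 to 1756 CPM (log2 fold change 1.38 ± 0.10). The 10 that lost most CPM were Atp2a1, mt-Co1, Myh4, Tnnt3, Tpm1, mt-Cytb, Actn3, mt-Nd5, Ckm and mt-Nd2, which encode the fast calcium pump, fast contractile proteins, the muscle creatine kinase and subunits of the respiratory chain made in mitochondria, with the reservation that mt-Nd5 overlaps mt-Nd6. Atp2a1, the pump that refills the sarcoplasmic reticulum, had 36078 and 34875 CPM in Unloading and 21828, 22727 and 23857 CPM in Reloading (log2 fold change -0.64 ± 0.073, adjusted p 1.17e-05), and Tnnt3, fast troponin T, had 29611 and 29969 CPM in Unloading and 18033, 17472 and 19565 CPM in Reloading (log2 fold change -0.70 ± 0.074, adjusted p 6.18e-06). Ckm had 18715 and 18574 CPM in Unloading and 12404, 11973 and 12629 CPM in Reloading (log2 fold change -0.60 ± 0.068, adjusted p 1.22e-05). In these 3 genes all Reloading libraries lay below all Control libraries as well. Myh4, the myosin heavy chain of the fastest fibres and the one with most CPM, had 63875 and 68083 CPM in Unloading and 54386, 48324 and 54973 CPM in Reloading (log2 fold change -0.33 ± 0.087, adjusted p 0.00855); its log2 fold change was -0.080 with library totals only, -0.28, adjusted p 0.0518, without Reloading 2 and -0.29, adjusted p 0.0652, without Unloading 2, so its call depends on both libraries and on the scaling.

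Genes of the actin cytoskeleton were higher in number and size. On a list of targets of SRF and its MRTF cofactors, 35 of 48 tested genes were higher and 5 lower. The median of their log2 fold changes was 0.88 against 0.026 over all genes, and 22 were called at least 2-fold higher. On a list of actin remodelling proteins, which shares some members with it, 48 of 75 tested genes were higher and 11 lower, with a median of 0.65. Without the skin-bearing libraries 32 and 46 were higher. Tpm4, the tropomyosin of non-muscle filaments, rose from 18.0 to 54.6 CPM (log2 fold change 1.60 ± 0.10), Myh9, the non-muscle myosin heavy chain, from 53.8 to 189 CPM (log2 fold change 1.82 ± 0.11), and Fscn1, which bundles filaments, from 4.02 to 15.5 CPM (log2 fold change 1.93 ± 0.27). Acta2, the actin of smooth muscle, rose from 19.98 to 55.0 CPM (log2 fold change 1.46 ± 0.10). Not every member was called. Srf itself had 72.5 and 85.9 CPM against 87.0, 84.1 and 87.4 CPM in Reloading and a log2 fold change 0.12 ± 0.089, adjusted p 0.314, which was called with library totals only (0.37, adjusted p 0.00314), and Acta1, the skeletal actin, had 16414 and 18635 CPM against 16585, 14941 and 16054 CPM and a log2 fold change -0.14 ± 0.095, adjusted p 0.251. Gsn, an actin-severing protein, fell from 1013 to 585 CPM (log2 fold change -0.79 ± 0.089) and Tpm1, the fast-fibre tropomyosin, fell from 23763 to 15037 CPM (log2 fold change -0.66 ± 0.075). Of YAP targets 9 of 19 tested genes were higher and 1 lower, and the number higher was 5 when Unloading 1 was left out. Ccn1 and Ccn2, secreted matricellular targets of YAP, rose from 31.2 to 80.6 CPM (log2 fold change 1.37 ± 0.15) and from 17.7 to 41.2 CPM (log2 fold change 1.23 ± 0.11), and Ccn1 alone of the pair was already above Control in Unloading. Yap1 rose from 44.6 to 69.4 CPM (log2 fold change 0.64 ± 0.081).

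Adhesion, membrane and microtubule genes followed. Among integrins and focal adhesion proteins 25 of 54 tested genes were higher and 6 lower (median 0.44). Itga5, the fibronectin receptor subunit, had 9.66 and 7.65 CPM in Unloading and 30.1, 27.7 and 23.3 CPM in Reloading (log2 fold change 1.65 ± 0.15, adjusted p 1.32e-06), and Itga6, a laminin receptor subunit, rose from 14.3 to 41.2 CPM (log2 fold change 1.52 ± 0.16). Vcl, vinculin, rose from 45.3 to 107 CPM (log2 fold change 1.23 ± 0.11), with the reservation that its exons overlap those of Ap3m1. Of annexins and other genes of membrane repair, 18 of 34 tested genes were higher and 2 lower (median 0.40). Anxa2 rose from 26.2 to 77.8 CPM (log2 fold change 1.57 ± 0.12), Ehd4, a remodeller of membrane tubules, from 37.8 to 141 CPM (log2 fold change 1.90 ± 0.13), and dysferlin (Dysf) and its partner Trim72, which patch torn membrane, from 76.7 to 152 CPM (log2 fold change 0.99 ± 0.081) and from 147 to 290.4 CPM (log2 fold change 0.98 ± 0.087). Among tubulins, motors and microtubule-binding proteins 23 of 61 tested genes were higher and 5 lower, and the number higher was 15 when Unloading 1 was left out and 15 when Unloading 2 was left out. Tubb6, a beta-tubulin of regenerating muscle, had 16.7 and 18.6 CPM in Unloading and 117, 101 and 81.4 CPM in Reloading (log2 fold change 2.49 ± 0.17, adjusted p 7.09e-08), and Tubb5 rose from 26.4 to 82.0 CPM (log2 fold change 1.63 ± 0.12). The microtubule end-binding protein Mapre2 rose from 34.8 to 82.3 CPM (log2 fold change 1.24 ± 0.11).

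The Z-disc and costamere list itself was divided, with 25 genes higher and 16 lower of 60. The higher ones included Xirp1, Csrp3, Flnc and the ankyrin repeat genes described above. The lower ones included Actn3 (log2 fold change -0.73), the dystrophin gene Dmd from 114 to 60.7 CPM (log2 fold change -0.91 ± 0.10) and Ankrd23 from 241 to 109.8 CPM (log2 fold change -1.13 ± 0.11), the third member of the family of Ankrd1 and Ankrd2. Ankrd23 thus moved against its relatives, and each of its Reloading libraries lay below every Control library.

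**Figure D3:**
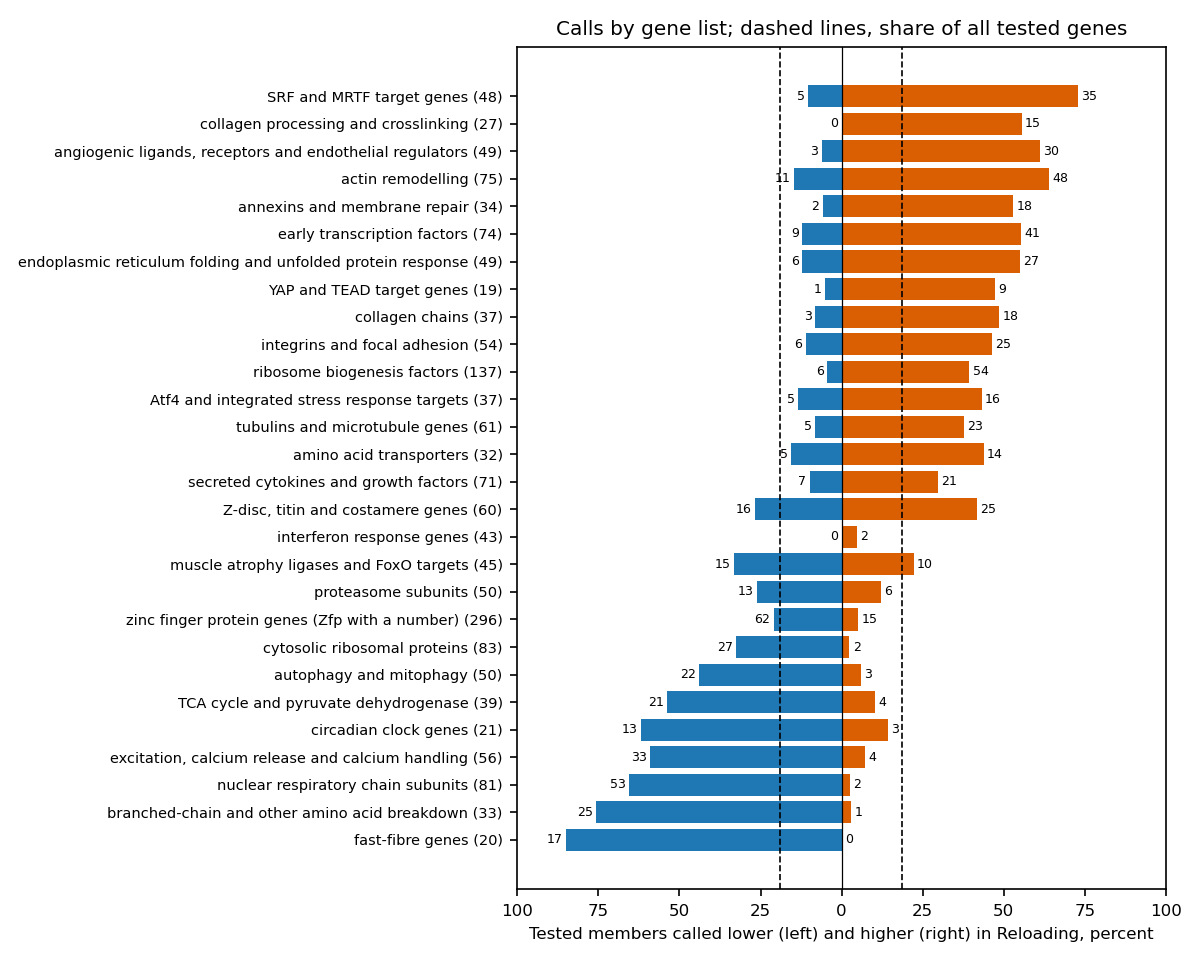
Percent of the tested members of each of 28 gene lists called higher (orange, right) or lower (blue, left) in Reloading, with the number called at each bar, the number tested in brackets and dashed lines at the 18.5% and 19.0% of all tested genes. SRF and MRTF targets (35 higher of 48) and fast-fibre genes (17 lower of 20) stand at opposite ends of the lists drawn.

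Many transcription factors of the early response were higher. Of a list of 74 tested factors, 41 were higher and 9 lower (median 0.68), and 26 were at least 2-fold higher. Fos and Junb, subunits of AP-1, rose from 5.13 to 22.9 CPM (log2 fold change 2.20 ± 0.39) and from 6.79 to 18.7 CPM (log2 fold change 1.44 ± 0.27), and Jun rose from 58.0 to 98.5 CPM (log2 fold change 0.76 ± 0.15). Id1, an inhibitor of helix-loop-helix factors, rose from 4.30 to 20.3 CPM (log2 fold change 2.23 ± 0.27), and Runx1, which responds to denervation, rose from 2.38 to 13.7 CPM (log2 fold change 2.51 ± 0.26). Myc had 8.61 and 6.50 CPM in Unloading and 17.8, 16.2 and 10.7 CPM in Reloading, a log2 fold change 0.99 ± 0.27, adjusted p 0.00950, and 0.78, adjusted p 0.113, without Unloading 2. Klf15, a glucocorticoid-responsive factor of muscle metabolism, fell from 43.2 to 24.4 CPM (log2 fold change -0.81 ± 0.17), and Bhlhe40 fell from 228 to 147 CPM (log2 fold change -0.63 ± 0.097). The number of factors that fell was 4 when Reloading 2 was left out and 5 when Unloading 1 was left out. Foxo1, which drives atrophy genes, had 19.8 and 14.4 CPM against 15.4, 17.7 and 18.6 CPM (log2 fold change 0.027 ± 0.16, adjusted p 0.911).

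The signals sent and received changed with them. Among secreted cytokines and growth factors 21 of 71 tested genes were higher and 7 lower. Among receptors 24 of 73 tested genes were higher and 13 lower, and among chemokines 6 of 17 tested genes were higher and 5 lower. Hbegf, a membrane-shed ligand of the epidermal growth factor receptor, had 17.1 and 10.8 CPM in Unloading and 72.9, 65.9 and 51.9 CPM in Reloading (log2 fold change 2.21 ± 0.19, adjusted p 8.41e-07). Pdgfb, which recruits pericytes, rose from 15.4 to 47.3 CPM (log2 fold change 1.61 ± 0.15), Fgf1 from 25.1 to 67.8 CPM (log2 fold change 1.44 ± 0.11) and Tgfb1 from 3.14 to 8.20 CPM (log2 fold change 1.35 ± 0.25). Mstn, the myostatin that limits muscle growth, fell from 97.2 to 55.3 CPM (log2 fold change -0.81 ± 0.11), while Igf1, a growth factor of muscle, had 23.3 and 17.3 CPM against 16.6, 19.96 and 26.2 CPM (log2 fold change 0.058 ± 0.22, adjusted p 0.860). Apln and Gdnf, picked out after their values were seen, rose from very low levels. Apln, the apelin peptide, had 1.12 and 1.04 CPM in Unloading and 19.0, 16.99 and 11.9 CPM in Reloading (log2 fold change 3.87 ± 0.26, adjusted p 7.09e-08), and Gdnf, a survival factor of motor neurons, had 0.299 and 0.437 CPM in Unloading and 1.93, 1.37 and 1.92 CPM in Reloading (log2 fold change 2.18 ± 0.49, adjusted p 0.00283). For both genes the groups did not overlap. Il6ra, the receptor of interleukin 6, fell from 10.8 to 4.99 CPM (log2 fold change -1.11 ± 0.18), and Tnfrsf23, a decoy receptor of the tumour necrosis factor family, rose from 2.97 to 14.6 CPM (log2 fold change 2.30 ± 0.23). Of the chemokines, Ccl2, which attracts monocytes, had 5 and 4 counts in Unloading and 33, 53 and 42 in Reloading (log2 fold change 3.39 ± 0.42, adjusted p 2.23e-05), Cxcl12 rose from 47.2 to 77.6 CPM (log2 fold change 0.72 ± 0.11) and Ccl11, which attracts eosinophils, fell from 19.0 to 9.86 CPM (log2 fold change -0.94 ± 0.14). The number of chemokines lower was 3 when Reloading 2 was left out, 3 when Unloading 1 was left out and 2 when Unloading 2 was left out.

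Genes that switch signals off rose along with those that carry them. Of 52 feedback inhibitors, 21 were higher and 8 lower, and the number higher was 12 when Unloading 1 was left out. Rcan1 (ENSMUSG00000022951, chromosome 16, 92391953 to 92470867), an inhibitor of calcineurin that calcineurin itself induces, had 73.7 and 100.3 CPM in Unloading and 489.7, 470.3 and 352 CPM in Reloading (log2 fold change 2.33 ± 0.16, adjusted p 7.09e-08). Spry4 and Socs3, which damp receptor kinases and cytokine receptors, rose from 2.7002 to 9.40 CPM (log2 fold change 1.77 ± 0.29) and from 4.98 to 13.7 CPM (log2 fold change 1.43 ± 0.31), and the kinase Sik1 rose from 11.01 to 32.3 CPM (log2 fold change 1.56 ± 0.19). On the list of p53 and growth arrest genes 8 of 35 tested genes were higher and 12 lower, which turned to 11 higher and 7 lower with library totals only, and the number higher was 4 when Unloading 1 was left out. Btg2, an antiproliferative gene, rose from 10.1 to 40.5 CPM (log2 fold change 2.02 ± 0.18), whereas Trp53inp1 and Sesn3 (log2 fold change -0.94 ± 0.12) fell.

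Genes of the extracellular matrix were higher across the classes looked at. Of collagen chains 18 of 37 tested genes were higher and 3 lower (median 0.77), and of collagen processing and crosslinking enzymes 15 of 27 tested genes were higher and 0 lower (median 0.54). Of matricellular proteins 19 of 44 tested genes were higher and 3 lower, and of proteoglycans 14 of 36 tested genes were higher and 3 lower. Of matrix proteases with their inhibitors 18 of 50 tested genes were higher and 2 lower, where the number higher was 11 when Unloading 2 was left out. Col4a1 and Col4a2, the chains of basement membrane, rose from 46.5 to 195 CPM (log2 fold change 2.07 ± 0.22) and from 49.7 to 184 CPM (log2 fold change 1.88 ± 0.17). They are transcribed head to head and share annotated exons, so their reads may be mixed. Col1a1, of fibrillar type I collagen, had 52.7 and 63.8 CPM in Unloading and 248, 159.8 and 152 CPM in Reloading (log2 fold change 1.68 ± 0.33, adjusted p 0.000992), and Col3a1 had 65.0 and 77.8 CPM in Unloading and 215, 189 and 155 CPM in Reloading (log2 fold change 1.38 ± 0.20, adjusted p 8.45e-05). Both of these fibrillar collagens were below every Control library in Unloading and overlapped Control in Reloading (between 76.0 and 183 CPM in Control for Col1a1), whereas Col4a1 and Col4a2 passed above it. The skin-bearing libraries held the highest share of collagen transcripts in their groups, 0.101% in Control 2 against 0.0638 to 0.0767% in the other Control libraries and 0.189% in Reloading 1 against 0.128 and 0.147% in the other Reloading libraries. Without this pair the log2 fold changes were 1.42 for Col1a1 and 1.26 for Col3a1, and Col3a1 in Reloading no longer overlapped Control. Serpinh1, the collagen chaperone that is also on the heat shock list, rose from 25.02 to 101 CPM (log2 fold change 2.00 ± 0.17), and P4ha1, a prolyl hydroxylase of collagen, from 28.4 to 55.2 CPM (log2 fold change 0.95 ± 0.12).

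Matricellular proteins of injury and of tendon stood out by fold. Thbs1, thrombospondin 1, had 5.16 and 5.19 CPM in Unloading and 34.3, 23.6 and 20.7 CPM in Reloading (log2 fold change 2.33 ± 0.22, adjusted p 2.60e-06), Tnc, tenascin C, had 2.99 and 2.40 CPM in Unloading and 12.7, 9.69 and 12.6 CPM in Reloading (log2 fold change 2.13 ± 0.33, adjusted p 0.000181), and Postn, periostin, had 5.16 and 4.10 CPM in Unloading and 21.1, 18.7 and 19.7 CPM in Reloading (log2 fold change 2.11 ± 0.17, adjusted p 4.45e-07). Each of the 3 was at a low level and did not overlap between groups. Thbs4, of tendon and sheath, rose from 39.3 to 122 CPM (log2 fold change 1.63 ± 0.16). Cd44, the receptor of hyaluronan, rose from 3.79 to 12.99 CPM (log2 fold change 1.77 ± 0.17), and the proteases Adamts9 and Adamts1 rose from 3.69 to 12.9 CPM (log2 fold change 1.84 ± 0.21) and from 30.9 to 76.9 CPM (log2 fold change 1.31 ± 0.16). Timp1, an inhibitor of matrix metalloproteases, rose from 0.777 to 5.77 CPM (log2 fold change 2.90 ± 0.33), and Plaur, the urokinase receptor, from 0.893 to 3.73 CPM (log2 fold change 2.01 ± 0.33). Timp1, Plaur and Mmp10, a stromelysin, were chosen after their values were seen. Mmp10 had 0 counts in both Unloading and all 4 Control libraries and 34, 27 and 25 counts in Reloading, 2.12 CPM on average. Set against a floor of 3 counts over the Unloading group, which is 0.0946 CPM, that is at least 22.4-fold higher.

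Vessel genes formed another group. Of angiogenic ligands, receptors and endothelial regulators 30 of 49 tested genes were higher and 3 lower (median 0.68), and of the endothelial markers 19 of 20 were higher and 0 lower (median 0.86). Kdr, the main receptor of vascular endothelial growth factor, had 10.6 and 15.9 CPM in Unloading and 56.3, 44.9 and 41.9 CPM in Reloading (log2 fold change 1.82 ± 0.18, adjusted p 3.49e-06), with between 24.4 and 34.4 CPM in Control, so that it lay below Control in Unloading and above it in Reloading. Plvap, of fenestrated endothelium, rose from 7.94 to 24.3 CPM (log2 fold change 1.60 ± 0.14), and Pecam1 and Cdh5, junction proteins of all endothelium, from 39.7 to 76.2 CPM (log2 fold change 0.94 ± 0.12) and from 47.8 to 78.7 CPM (log2 fold change 0.72 ± 0.11). Its ligand Vegfa rose from 155 to 243 CPM (log2 fold change 0.65 ± 0.11). The summed endothelial markers took between 0.0544 and 0.0583% of the counts in Unloading and between 0.101 and 0.117% in Reloading (between 0.0569 and 0.0633% in Control), so the ranges of Reloading and Unloading did not overlap.

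Markers of other resident cells moved as well, and their part in the changes of matrix, vessel and immune genes was not tested. Macrophage and monocyte markers took between 0.0182 and 0.0218% of the counts in Unloading and between 0.0293 and 0.0323% in Reloading (between 0.0147 and 0.0169% in Control). Of 26 tested markers 16 were higher, 10 of them at least 2-fold, and 1 was lower, also by at least 2-fold. Their log2 fold changes ran from -1.48 to 3.93 with a median of 0.71, and the highest was that of Cd68. Beside Cd68, Mrc1, of resident macrophages, rose from 10.4 to 17.7 CPM (log2 fold change 0.77 ± 0.17), Lyz2 from 29.1 to 43.3 CPM (log2 fold change 0.57 ± 0.098), Adgre1, which encodes F4/80, from 1.90 to 4.13 CPM (log2 fold change 1.12 ± 0.28) and the complement gene C1qb from 7.13 to 15.3 CPM (log2 fold change 1.11 ± 0.21). Ly6c2, Arg1 and Ms4a7 had at most 10 counts in any library. Spp1, osteopontin, had 10.9 and 9.29 CPM against 11.2, 5.93 and 14.4 CPM in Reloading (log2 fold change 0.066 ± 0.47, adjusted p 0.928). Markers of Schwann and nerve cells took between 0.00494 and 0.00594% of the counts in Unloading and between 0.0120 and 0.0165% in Reloading (between 0.00448 and 0.00658% in Control), with 7 of 12 higher, among them the myelin gene Mbp from 8.90 to 18.8 CPM (log2 fold change 1.09 ± 0.22). Markers of tendon cells took between 0.0107 and 0.0110% of the counts in Unloading and between 0.0229 and 0.0339% in Reloading (between 0.0109 and 0.0153% in Control), with 8 of 10 higher, 5 when Unloading 1 was left out, and 6 without the skin-bearing libraries. The tendon factor Scx rose from 4.32 to 8.51 CPM (log2 fold change 0.98 ± 0.17).

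**Figure D4:**
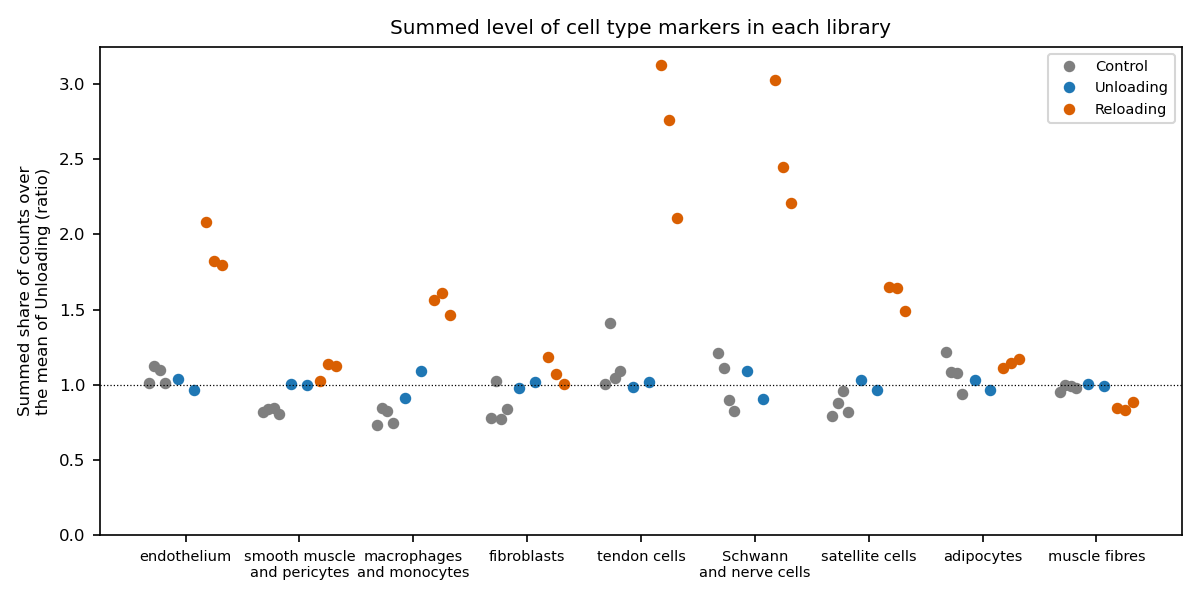
Summed share of counts of the marker genes of each cell type in every library, divided by the mean of the 2 Unloading libraries, for Control (grey), Unloading (blue) and Reloading (orange). Endothelial, macrophage, tendon, Schwann and satellite cell markers lie well above the Unloading mean in all 3 Reloading libraries, and muscle fibre markers lie below 1. The smooth muscle and pericyte list shares Des with the muscle fibre list. Shares are of library totals, without TMM.

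Further cell types were examined in the same way. Fibroblast and fibro-adipogenic markers took between 0.178 and 0.185% of the counts in Unloading and between 0.182 and 0.215% in Reloading, with 6 of 19 higher and 4 lower. This sum hides opposite changes, since Gsn, an abundant member, fell while Col1a1 and Col3a1 rose, as given above. Smooth muscle and pericyte markers took between 0.512 and 0.515% of the counts in Unloading and between 0.526 and 0.585% in Reloading, with 11 of 16 higher and 2 lower. This list holds Des, which is also on the muscle fibre list, so its share is not a measure of smooth muscle and pericytes alone. Myh11, the smooth muscle myosin, rose from 22.6 to 45.7 CPM (log2 fold change 1.02 ± 0.12). Adipocyte markers took between 0.237 and 0.254% of the counts in Unloading and between 0.272 and 0.287% in Reloading, with 2 of 13 higher. Of 16 neutrophil markers 5 had enough counts to be tested and 0 were called in either direction. S100a8, a defining transcript of neutrophils, had 0.524 and 0.328 CPM in Unloading and 0.242, 0.651 and 1.13 CPM in Reloading (log2 fold change 0.73 ± 0.94, adjusted p 0.570). Of 18 markers of T, B and NK cells 0 had enough counts to be tested, and 17 had at most 10 counts in every library.

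Satellite cell and regeneration genes were split. Of satellite cell markers 5 of 12 tested genes were higher and 0 lower, the number higher was 3 when Unloading 2 was left out, and Pax7, which defines the cells, had 4.12 and 2.79 CPM against 3.87, 2.10 and 3.25 CPM (log2 fold change -0.15 ± 0.26, adjusted p 0.680). Myod1 and Myog, factors of myoblast commitment and differentiation, rose from 10.6 to 26.4 CPM (log2 fold change 1.30 ± 0.18) and from 3.06 to 8.13 CPM (log2 fold change 1.40 ± 0.23). Vgll2, a muscle cofactor of TEAD proteins, rose from 23.9 to 64.7 CPM (log2 fold change 1.44 ± 0.14) and Actc1, the cardiac actin of developing fibres, from 80.5 to 179.9 CPM (log2 fold change 1.15 ± 0.24), which left it below every Control library. Igf2bp2, an RNA-binding protein of growing muscle chosen after its values were seen, had 1.35 and 0.874 CPM in Unloading and 12.5, 11.1 and 8.68 CPM in Reloading (log2 fold change 3.30 ± 0.26, adjusted p 4.04e-07). Myh8, the perinatal myosin, had 16.1 and 18.8 CPM against 16.6, 23.9 and 22.3 CPM (log2 fold change 0.26 ± 0.14, adjusted p 0.172), and was called without Reloading 1 (0.40, adjusted p 0.0263). On a list of genes of the neuromuscular junction and of denervation 10 of 26 tested genes were higher and 1 lower, and the number higher was 6 when Unloading 2 was left out. The acetylcholine receptor subunit Chrna1 and the receptor kinase Musk had 13.02 and 11.1 CPM against 11.04, 12.5 and 12.6 CPM (log2 fold change 0.0065 ± 0.15, adjusted p 0.977) and 25.8 and 24.97 CPM against 22.9, 26.0 and 25.8 CPM (log2 fold change -0.025 ± 0.16, adjusted p 0.915).

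Protein folding beyond the cytosolic heat shock genes also rose. In the endoplasmic reticulum list 27 of 49 tested genes were higher and 6 lower (median 0.35). Hspa5, the main chaperone of that compartment, had 175 and 142 CPM in Unloading and 519, 415 and 406 CPM in Reloading (log2 fold change 1.49 ± 0.12, adjusted p 2.87e-07), and its nucleotide exchange factor Hyou1 rose from 22.9 to 61.8 CPM (log2 fold change 1.43 ± 0.13). Pdia6, a disulfide isomerase, rose from 40.4 to 100.1 CPM (log2 fold change 1.31 ± 0.095), Dnajb9, a co-chaperone of Hspa5, from 43.4 to 101 CPM (log2 fold change 1.22 ± 0.11), and the secreted folding factor Manf from 9.29 to 31.7 CPM (log2 fold change 1.77 ± 0.13), with exons shared with Dcaf1 and Rbm15b. Xbp1, the factor spliced in the unfolded protein response, rose from 50.1 to 115 CPM (log2 fold change 1.20 ± 0.12). All 8 subunits of the TRiC chaperonin, which folds actin and tubulin, were tested; 7 were higher and 0 lower, by modest amounts, with Cct3 rising from 61.3 to 122 CPM (log2 fold change 0.99 ± 0.096). For comparison, on the list of heat shock proteins and co-chaperones 44 of 58 tested genes were higher and 4 lower.

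Relative to the TMM zero line, genes of ribosome production and of the ribosome itself moved apart. Of 137 biogenesis factors 54 were higher and 6 lower (median 0.23). The number higher was 35 when Unloading 2 was left out and 99 with library totals only. Rrp12, a factor in the export of both ribosomal subunits, had 57.8 and 54.4 CPM in Unloading and 156, 139 and 126 CPM in Reloading (log2 fold change 1.32 ± 0.094, adjusted p 1.42e-07). Of 83 cytosolic ribosomal proteins 2 were higher and 27 lower (median -0.14), a median that turned to 0.11 with library totals only, where 16 were higher and 3 lower. The number lower was 17 when Reloading 1 was left out and 13 when Unloading 1 was left out and 17 without the skin-bearing libraries. Together the ribosomal protein transcripts took between 1.36 and 1.43% of the counts in Unloading and between 1.42 and 1.52% in Reloading, so their summed share was not lower. Rps14 fell from 295 to 191 CPM (log2 fold change -0.62 ± 0.070) and Rpl23a from 89.4 to 62.6 CPM (log2 fold change -0.51 ± 0.082), and their log2 fold changes were -0.38 and -0.27 with library totals only. The 2 that were higher were Rpl7l1 and Rpl3, and Rpl3 rose 2.76-fold, with 43.5 and 45.4 CPM in Unloading and 127, 122 and 119.6 CPM in Reloading (log2 fold change 1.47 ± 0.083, adjusted p 1.30e-08). Initiation factors were mostly lower, 22 against 7 of 53, the number higher was 3 when Unloading 1 was left out, and the median of -0.079 turned to 0.17 with library totals only. With library totals only 23 initiation factors were higher and 5 lower. Eif2s2, a subunit of the factor that brings the initiator transfer RNA, fell from 289.6 to 183 CPM (log2 fold change -0.66 ± 0.10), and the helicase Eif4a1 rose from 100.1 to 152 CPM (log2 fold change 0.60 ± 0.081).

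Supply of building blocks changed in parts. Among amino acid transporters 14 of 32 tested genes were higher and 5 lower (median 0.43). Slc38a2, which brings in small neutral amino acids, had 115 and 104 CPM in Unloading and 267, 241 and 277 CPM in Reloading (log2 fold change 1.26 ± 0.090, adjusted p 1.50e-07), and Slc7a1, the transporter of arginine and lysine, rose from 3.75 to 8.16 CPM (log2 fold change 1.11 ± 0.19). Slc43a1 and Slc43a2, 2 transporters of large neutral amino acids, moved in opposite directions, from 31.2 to 15.7 CPM (log2 fold change -0.99 ± 0.10) and from 22.4 to 39.7 CPM (log2 fold change 0.82 ± 0.17). Of genes induced by Atf4 in the integrated stress response 16 of 37 tested genes were higher and 5 lower. Atf4 rose from 158 to 234 CPM (log2 fold change 0.56 ± 0.083), and the serine and asparagine synthesis genes Psat1 and Asns rose from low levels, from 1.97 to 6.88 CPM (log2 fold change 1.82 ± 0.23) and from 0.981 to 2.82 CPM (log2 fold change 1.54 ± 0.31), whereas Chac1 and the alanine aminotransferase Gpt2, also Atf4 targets, fell. Gpt2 had 722 and 567 CPM in Unloading and 269, 262 and 297 CPM in Reloading (log2 fold change -1.22 ± 0.11, adjusted p 1.62e-06). Of polyamine genes 9 of 18 tested genes were lower and 2 higher, which became 4 higher and 4 lower with library totals only, and the number lower was 5 when Unloading 2 was left out. Amd1, S-adenosylmethionine decarboxylase, had 652 and 1017 CPM in Unloading and 375, 417 and 345 CPM in Reloading (log2 fold change -1.14 ± 0.15, adjusted p 3.86e-05), while Srm, the spermidine synthase next in the pathway, rose from 7.28 to 18.2 CPM (log2 fold change 1.31 ± 0.13), and Odc1, which starts the pathway, had 226 and 236 CPM against 248, 259 and 224 CPM (log2 fold change 0.079 ± 0.095, adjusted p 0.546), which was called with library totals only (0.33, adjusted p 0.0120). In nucleotide synthesis 13 of 50 tested genes were higher and 9 lower (26.0% and 18.0%, beside 18.5% and 19.0% of all tested genes). Uck2, which salvages uridine, rose from 21.0 to 53.1 CPM (log2 fold change 1.34 ± 0.091).

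Protein breakdown did not move in a single direction. Of atrophy ligases and FoxO targets 10 of 45 tested genes were higher and 15 lower, which turned to 20 higher and 9 lower with library totals only. The atrophy ligase Fbxo32 fell from 352 to 221 CPM (log2 fold change -0.67 ± 0.13). Trim63, the other classic atrophy ligase, had 281 and 267 CPM in Unloading and 472, 332 and 358 CPM in Reloading (log2 fold change 0.50 ± 0.14, adjusted p 0.00976), and 0.45, adjusted p 0.0780, without Unloading 2. Klhl40 and Klhl41, which stabilise thin-filament proteins, rose from 121 to 569 CPM (log2 fold change 2.23 ± 0.17) and from 584 to 1249 CPM (log2 fold change 1.10 ± 0.090), and the ligase Rnf115 rose from 64.0 to 215 CPM (log2 fold change 1.75 ± 0.12). Of proteasome subunits 13 were lower and 6 higher of 50, with a median of -0.062 that turned to 0.19 with library totals only, and the number lower was 6 when Unloading 2 was left out. Psmd11, of the regulatory lid, rose from 94.5 to 221 CPM (log2 fold change 1.22 ± 0.090), and Psme4, an alternative activator, fell from 446 to 258 CPM (log2 fold change -0.79 ± 0.088). Autophagy genes were mostly lower, 22 against 3 of 50, with a median of -0.23 that turned to 0.019 with library totals only. Ulk1, the kinase that starts autophagy, fell from 115 to 62.7 CPM (log2 fold change -0.88 ± 0.10), the mitophagy receptors Bnip3 and Bnip3l fell from 155 to 87.3 CPM (log2 fold change -0.82 ± 0.11) and from 82.6 to 49.3 CPM (log2 fold change -0.74 ± 0.079), and Gabarapl1 rose from 37.7 to 87.9 CPM (log2 fold change 1.22 ± 0.11). Lysosomal genes gave 23 higher and 14 lower of 70, and the number higher was 14 when Reloading 1 was left out, 14 when Reloading 2 was left out, 13 when Unloading 1 was left out and 13 when Unloading 2 was left out, and 14 without the skin-bearing libraries. Gusb, beta-glucuronidase, had 8.76 and 6.94 CPM in Unloading and 55.8, 46.6 and 31.9 CPM in Reloading (log2 fold change 2.52 ± 0.20, adjusted p 4.04e-07).

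Contractile and calcium genes of fast fibres were lower. Of 20 fast-fibre genes 17 were lower and 0 higher (median -0.62, and -0.38 with 12 lower with library totals only). Together they took between 22.5 and 22.6% of the counts in Unloading and between 18.0 and 19.3% in Reloading. Mylk2, the skeletal myosin light chain kinase, fell from 1622 to 866 CPM (log2 fold change -0.91 ± 0.11). Among slow-fibre genes 3 of 17 tested genes were higher and 4 lower (17.6% and 23.5%, beside 18.5% and 19.0% of all tested genes). With library totals only 3 were higher and 3 lower. The oxygen-binding protein Mb fell from 1239 to 641 CPM (log2 fold change -0.95 ± 0.11), and Myh7 and Myh2, the slow and the type IIa myosin heavy chain, had 277 and 157 CPM against 152, 174 and 166 CPM (log2 fold change -0.40 ± 0.27, adjusted p 0.267) and 1065 and 1203 CPM against 971, 939 and 1662 CPM (log2 fold change 0.071 ± 0.18, adjusted p 0.783). Of genes for excitation and calcium handling 33 of 56 tested genes were lower and 4 higher (median -0.35, and -0.11 with library totals only). Trdn (ENSMUSG00000019787, chromosome 10, 33080554 to 33476709), triadin, which anchors calsequestrin at the release channel, had 2683 and 2434 CPM in Unloading and 905, 1078 and 1162 CPM in Reloading (log2 fold change -1.29 ± 0.12, adjusted p 1.57e-06), with each Reloading library below every Control library (between 1829.7 and 2293 CPM in Control). Mrln, a micropeptide that inhibits the calcium pump, fell from 51.4 to 23.0 CPM (log2 fold change -1.16 ± 0.14), and the calcium channel subunit Cacna2d4 from 5.62 to 2.32 CPM (log2 fold change -1.30 ± 0.24). Potassium channels were mixed, with 5 of 32 tested genes higher and 8 lower. With library totals only this turned to 10 higher and 7 lower. Among those that fell, Kcnj2, which holds the resting potential, went from 109.7 to 51.1 CPM (log2 fold change -1.10 ± 0.12). Kcnq5 fell from 19.9 to 8.28 CPM (log2 fold change -1.26 ± 0.14).

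**Figure D5:**
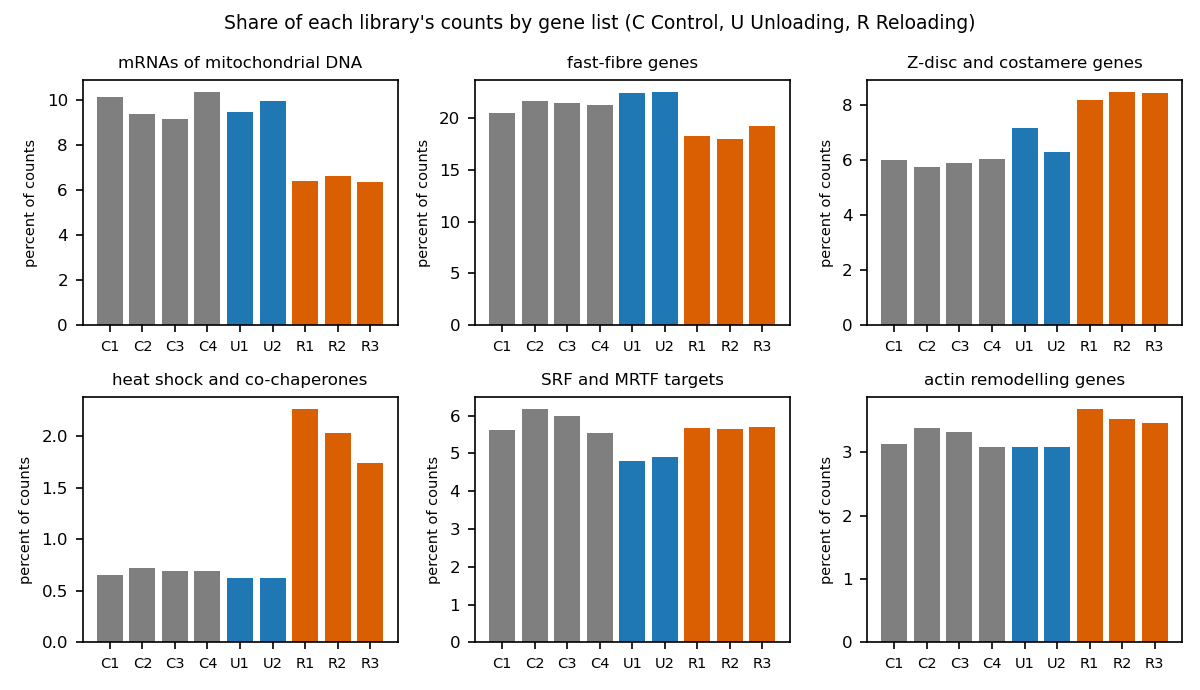
Percent of each library's counts taken by 6 gene lists, with a bar for every library of Control (C1 to C4, grey), Unloading (U1 and U2, blue) and Reloading (R1 to R3, orange), on axes from 0. Messenger RNAs of mitochondrial DNA and fast-fibre genes take a smaller share in all 3 Reloading libraries than in any other, and Z-disc genes, actin remodelling genes and heat shock genes a larger one, while SRF and MRTF targets return to the Control range.

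Genes of mitochondria and of fuel use were lower, by small amounts that lean on the scaling. Of 81 respiratory chain subunits encoded in the nucleus 53 were lower and 2 higher (median -0.28), but with library totals only the median was -0.033 with 9 lower, and the count lower with TMM was 27 when Unloading 2 was left out. The 13 messenger RNAs of mitochondrial DNA fell further, 8 lower and 0 higher (median -0.76, and -0.51 with library totals only), and took between 9.49 and 9.98% of the counts in Unloading and between 6.37 and 6.64% in Reloading (between 9.16 and 10.4% in Control). The mt-Co1 transcript had 33609 and 35412 CPM in Unloading and 19615, 19522 and 19746 CPM in Reloading (log2 fold change -0.81 ± 0.081, adjusted p 3.45e-06), and mt-Nd6, the only one encoded on the light strand, fell from 3561 to 1525 CPM (log2 fold change -1.22 ± 0.088) but overlaps mt-Nd5. In the tricarboxylic acid cycle 21 of 39 tested genes were lower and 4 higher, with a median of -0.24 that turned to 0.0074 with library totals only, and the number lower was 12 when Unloading 2 was left out. With library totals only 8 of the cycle genes were higher and 7 lower. Together these genes took between 1.06 and 1.17% of the counts in Unloading and between 1.13 and 1.22% in Reloading. Idh2, the mitochondrial isocitrate dehydrogenase, fell from 159 to 94.6 CPM (log2 fold change -0.75 ± 0.078). Of fatty acid genes 23 of 55 tested genes were lower and 7 higher, with a median of -0.20 that turned to 0.047 with library totals only, and the number lower was 15 when Reloading 2 was left out and 13 when Unloading 2 was left out. With library totals only 15 fatty acid genes were higher and 9 lower. Acsl3, which activates fatty acids, fell from 36.7 to 13.5 CPM (log2 fold change -1.44 ± 0.24). The breakdown of branched-chain and other amino acids was lower under both scalings, 25 of 33 (median -0.53) and 19 with library totals only (median -0.28). Bckdha, of the rate-limiting dehydrogenase, had 45.0 and 48.0 CPM in Unloading and 24.8, 21.6 and 22.9 CPM in Reloading (log2 fold change -1.01 ± 0.088, adjusted p 1.03e-06), and Aldh6a1, of valine breakdown, 191 and 158 CPM in Unloading and 76.5, 75.7 and 87.7 CPM in Reloading (log2 fold change -1.12 ± 0.098, adjusted p 1.02e-06). Both stood below every Control library in Reloading.

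Sugar use was mixed. Of glycolytic genes 10 of 38 tested genes were higher and 13 lower, which turned to 16 higher and 6 lower with library totals only. Of glycogen genes 7 of 27 tested genes were higher and 12 lower, which turned to 10 higher and 7 lower with library totals only, and the number higher was 4 when Reloading 2 was left out and 3 when Unloading 1 was left out. Pfkfb3, which makes the activator of phosphofructokinase, had 840.1 and 1345 CPM in Unloading and 541, 519 and 296 CPM in Reloading (log2 fold change -1.27 ± 0.21, adjusted p 0.000267) and returned toward Control (between 413 and 527 CPM in Control). Hk2, the hexokinase that traps glucose in muscle, rose from 424 to 678 CPM (log2 fold change 0.68 ± 0.080), while Slc2a4, the insulin-responsive glucose transporter, had 481 and 489 CPM against 495, 479 and 504 CPM (log2 fold change 0.021 ± 0.070, adjusted p 0.832), which was called with library totals only (0.27, adjusted p 0.00535). Ppp1r3a, which directs a phosphatase to glycogen, fell from 616 to 318 CPM (log2 fold change -0.95 ± 0.098). Perm1, a muscle regulator of oxidative genes, rose from 169 to 305 CPM (log2 fold change 0.85 ± 0.075), and Ppargc1a, the coactivator PGC-1alpha, had 41.3 and 36.7 CPM against 33.8, 38.4 and 46.6 CPM (log2 fold change 0.028 ± 0.12, adjusted p 0.875). Among genes for the pentose phosphate path and for defence against oxidants 16 of 53 tested genes were higher and 11 lower. The metallothionein Mt1 rose from 9.49 to 33.6 CPM (log2 fold change 1.84 ± 0.16), and Gpx3, a secreted glutathione peroxidase, fell from 208 to 116 CPM (log2 fold change -0.84 ± 0.087).

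Calls differed between classes of RNA. Of 881 long noncoding genes 60 were higher and 221 lower (median -0.35), against 2446 and 2553 of 12499 protein-coding genes (median 0.011), and of 1410 pseudogenes 231 were higher and 29 lower (median 0.37). Neat1, the scaffold of paraspeckles, had 1546 and 1243 CPM in Unloading and 903, 729.6 and 764 CPM in Reloading (log2 fold change -0.80 ± 0.11, adjusted p 4.50e-05). Malat1, of nuclear speckles, had 1167 and 881 CPM in Unloading and 789, 765 and 789.8 CPM in Reloading (log2 fold change -0.39 ± 0.12, adjusted p 0.0209), -0.18, adjusted p 0.349, without Unloading 1, -0.38, adjusted p 0.0581, without Reloading 2 and -0.14, adjusted p 0.363, with library totals only. Pseudogenes resemble their parent genes in sequence, so reads given to them are uncertain. Of 296 zinc finger genes named Zfp with a number, 62 were lower (20.9%) and 15 higher (5.07%), beside 19.0% and 18.5% of all tested genes. The share lower was thus near that of all genes. Their median of -0.16 turned to 0.086 with library totals only, where 48 were higher and 26 lower. The number higher was 9 without the skin-bearing libraries. Zfp697, chosen after its values were seen, rose from 0.934 to 7.88 CPM (log2 fold change 3.08 ± 0.27) and Zfp46 fell from 43.3 to 20.6 CPM (log2 fold change -1.07 ± 0.087). Splicing factors gave 18 higher and 31 lower of 108, a balance that turned to 47 higher and 9 lower with library totals only, and the number lower was 20 when Unloading 1 was left out. With TMM 16.7% of the splicing factors were higher and 28.7% lower, beside 18.5% and 19.0% of all tested genes. Mbnl1, a splicing regulator of adult muscle, fell from 645 to 328 CPM (log2 fold change -0.97 ± 0.11). Of clock genes 13 of 21 tested genes were lower and 3 higher (median -0.33), against 5 lower and 6 higher with library totals only (median -0.080); Rora, an activator in the clock, fell from 218 to 100.01 CPM (log2 fold change -1.12 ± 0.13), and Per1 and Per2, of its negative limb, had 152 and 115 CPM against 145, 169.5 and 154 CPM (log2 fold change 0.23 ± 0.16, adjusted p 0.282) and 27.8 and 28.7 CPM against 29.0, 30.4 and 35.3 CPM (log2 fold change 0.16 ± 0.11, adjusted p 0.282); both were called with library totals only (0.48, adjusted p 0.0260, and 0.41, adjusted p 0.00750).

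Cell division genes were few and low. In DNA replication and mitosis 10 of 38 tested genes were higher and 2 lower, and the number higher was 6 when Reloading 1 was left out and 6 when Unloading 1 was left out. Mki67, which marks dividing cells, had 0.524 and 0.273 CPM in Unloading and 1.37, 0.940 and 1.06 CPM in Reloading (log2 fold change 1.52 ± 0.50, adjusted p 0.0258). It was not called without Unloading 2 (1.07, adjusted p 0.241), without Reloading 1 (1.37, adjusted p 0.0653) or without both skin-bearing libraries (1.37, adjusted p 0.0715). Pcna, the replication clamp, rose from 19.9 to 28.0 CPM (log2 fold change 0.49 ± 0.098). Few interferon response genes were called, 2 of 43 higher and 0 lower. Ifit1 had 1.95 and 1.58 CPM against 2.34, 1.45 and 1.66 CPM (log2 fold change 0.040 ± 0.39, adjusted p 0.946).

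In several families a member rose and is given here beside a relative; these pairs were chosen after their values were seen and carry no test of their own. Rpl3 rose while Rpl3l, the muscle form of the same ribosomal protein, had 482 and 571 CPM against 386, 384 and 414 CPM (log2 fold change -0.42 ± 0.081, adjusted p 0.000989), or -0.17, adjusted p 0.0888, with library totals only. Actn2 rose and Actn3 fell from 16958 to 10224 CPM (log2 fold change -0.73 ± 0.087). Prkag2, a widely expressed regulatory subunit of the energy sensor AMPK, had 7.56 and 6.72 CPM in Unloading and 18.6, 17.2 and 19.2 CPM in Reloading (log2 fold change 1.37 ± 0.13, adjusted p 2.05e-06) and Prkag3, the subunit of fast fibres, had 290.4 and 256 CPM in Unloading and 138, 134 and 161 CPM in Reloading (log2 fold change -0.92 ± 0.095, adjusted p 5.34e-06). Utrn, utrophin, rose from 27.2 to 44.8 CPM (log2 fold change 0.72 ± 0.12), opposite to its relative dystrophin. Of the sodium pump, the widely expressed subunit Atp1b1 rose from 116 to 291 CPM (log2 fold change 1.32 ± 0.098), and the muscle subunit Atp1b2 had 238 and 215 CPM against 229, 222 and 228 CPM (log2 fold change 0.0011 ± 0.083, adjusted p 0.994), which was called with library totals only (0.25, adjusted p 0.0270). The Prkag and sodium pump changes left Prkag2 and Atp1b1 above every Control library and Prkag3 below every Control library.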

How the data were processed

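Total polyadenylated RNA of gastrocnemius was sequenced in 9 samples, 4 Control, 2 Unloading and 3 Reloading. The authors aligned reads with STAR 2.7.3a to GRCm38.p6 and counted them per gene with featureCounts 2.0.3, without strand as far as the sources used here state, and deposited raw counts in a table of 55487 Ensembl release 102 genes. The methods describe single reads, whereas the labels and the file describe read pairs. The authors' own comparison tables, which hold DESeq2 fold changes, p-values and means over libraries, were not used. Samples were mapped to groups by their labels, and the 9 value columns of the table all matched a sample.

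From the deposited counts, genes were kept by filterByExpr (minimum count 10, minimum total 15) and tested with edgeR 4.0.16 (R 4.3.3) by the quasi-likelihood F-test after TMM scaling, with all 9 libraries in the fit so that the groups share an estimate of the spread, and the contrast Reloading against Unloading. The common biological coefficient of variation was 0.0927. P-values were adjusted by Benjamini-Hochberg over all 14851 tested genes with a threshold of 0.05. The standard error of a log2 fold change is its size divided by the square root of F. Total counts per library were between 9252443 and 19612101, and a gene at a few counts is measured with a wide error.

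Genes were named by a rule of 3 parts. The first took the 15 higher and 15 lower genes of largest log2 fold change whose log2 CPM averaged 2 or more and whose groups did not overlap, the second the 10 of largest CPM difference each way, both leaving out predicted genes, heat shock genes, Mustn1 and the genes the study drew for this comparison (Atf3, Tnfrsf12a, Rgcc, Enah, Cryab, Dnaja4, Hspa1b). The third took called members of largest change in each of 81 gene lists, with up to 4 a list, and members that define a pathway whether or not they were called. Not every gene that the rule allows is printed, and Ankrd23, Asns, Ccl2, Fkbp5, Psat1, Ramp1, Runx1 and Tpm4 were, like the genes so marked in the text, chosen after their values were seen. The lists hold 2355 symbols, of which 30 had no match in the table. The comparison, the lists and the members were chosen with earlier results of these data known. Lists are described by counts and medians beside those of all tested genes and were not tested as sets.

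The replicate numbers of the titles and of the sample descriptions were checked for pairing through correlations of deviations from the group means. Same-numbered Reloading and Unloading libraries had no correlation over 0.1. With 2 Unloading libraries this check cannot decide whether samples are paired, and the comparison has no block. Alternatives were DESeq2 size factors, library totals only, TMM without mitochondrial genes, no filter, DESeq2 1.42.0, the 5 libraries alone, a robust fit, a replicate block by either number, a test against a fold of 1.5, and leaving out each library. Leaving out Reloading 1 and Control 2 together was added after the data were seen. The procedure was also run on simulated counts with few changed genes, as many higher as lower, and a constant spread. Such counts cannot test the choice of scaling or the spread in a group of 2 libraries. Promoter stretches are RefSeq sequence of GRCm38.p6.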

Additional observations from a re-analysis of the deposited data

Results flagged for a closer look

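In Control, 29 values that the text gives for groups of 4 libraries were examined for a library far from the other 3, and 3 passed Dixon's critical value for 4 samples, where chance alone gives about 1 in 20. Control 2 had 1086 counts of Krt2 against 0, 1 and 2 in the other Control libraries, and its keratinocyte markers took 0.0373% of the counts against 0.00158 to 0.00196%. Both values concern the same skin transcripts. Erythrocyte markers took 0.0283% of the counts in Control 1 against 0.0161 to 0.0179% in the other Control libraries. Groups of fewer than 4 libraries were not examined in this way.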

How the results depend on the processing

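Against 5562 calls here, between 3934 and 5654 genes were called when each library was left out in turn, among them between 3693 and 5483 of the 5562 with the same sign, with 1876 to 2762 higher, 2045 to 2892 lower, 808 to 992 at least 2-fold higher and 223 to 336 at least 2-fold lower. With library totals only, 5250 were higher and 1090 lower, of which 1587 were at least 2-fold higher and 130 at least 2-fold lower. A test against a fold of 1.5 called 869 genes, 653 higher and 216 lower, with 588 at least 2-fold higher and 150 at least 2-fold lower, since it asks for a larger change. DESeq2 called 4385 genes, of which 42.7% were higher against 49.3% here. DESeq2 size factors gave 5613 calls, TMM without mitochondrial genes 5525, no filter 5540, the 5 libraries alone 5523, the robust fit 5638, and leaving out both skin-bearing libraries 4628. A replicate block gave 5108 calls with the numbers of the titles and 4902 with those of the descriptions. The correlations between same-numbered Reloading and Unloading libraries were -0.017 and 0.057 by title and 0.017 by description. Deviations of 2 Unloading libraries from their mean mirror each other, so -0.017 and 0.017 are the same value for Reloading 1 with its sign turned. This check therefore cannot decide whether the numbers pair these samples, and no block was used. Between Control and Reloading the same-numbered correlations by description were 0.361, 0.143 and 0.155, each the highest that the Reloading library had with a Control library, which is a hint from the data and not from the design. The value of 0.361 was between Control 2 and Reloading 1, the libraries with skin transcripts. Under the description block 4473 of the 5562 calls remained, and adipocyte markers called higher went from 2 to 7. Of 80 gene lists with a tested member, 30 had a median below 0 and 21 of these were above 0 with library totals only. With 2 Unloading libraries, the spread in that group rests on a single difference, and changes under about 1.5-fold are the least certain.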

Other observations

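Among lists not described above, metal and iron genes gave 14 higher and 7 lower of 42, where the number higher was 6 when Unloading 1 was left out. Genes of nuclear transport gave 11 higher and 5 lower of 54 (20.4% and 9.26%, beside 18.5% and 19.0% of all tested genes). Their number higher was 7 when Reloading 2 was left out. Mitochondrial ribosomal proteins gave 6 higher and 20 lower of 77, turning to 23 and 1 with library totals only, where the number lower was 10 when Reloading 1 was left out, 11 when Reloading 2 was left out and 4 when Unloading 2 was left out. Genes of programmed cell death gave 6 higher and 3 lower of 37, and chromatin modifiers 11 higher and 20 lower of 83, turning to 34 and 5 with library totals only, where the number higher was 7 when Unloading 1 was left out and 4 when Unloading 2 was left out. The shares higher and lower were 16.2% and 8.11% for cell death genes and 13.3% and 24.1% for chromatin modifiers. Over all tested genes they were 18.5% and 19.0%. When genes were ranked by summed exon length and cut into 5 equal classes, 734 were lower and 547 higher in the class of longest genes.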
